A study of Homo sapiens with 8 samples.

Results

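The 10 genes described here encode surface antigens of plasma cells that serve as diagnostic markers or drug targets in multiple myeloma: TNFRSF17, TNFRSF13B, CD27, SLAMF7, FCRL5, NCAM1, CD28, SDC1, CD38 and GPRC5D. They were named by symbol and not picked by a rule on their measured values, but earlier results of these data were known. They are 10 of the 58219 genes listed in the quantification of each library. RNA was sequenced from H929 (NCI-H929) and KMS11, human multiple myeloma cell lines that both carry the t(4;14) translocation, after 24 h in 2 μM fluvastatin, an inhibitor of HMG-CoA reductase, or in ethanol, its solvent. Each of the 4 groups (H929 in ethanol, H929 in fluvastatin, KMS11 in ethanol, KMS11 in fluvastatin) had 2 biological replicates. Each line is a single established culture, and the spread was estimated over the 4 groups together. The p-values thus measured the spread between cultures of these lines and not between tumors.

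Plasma cells are the antibody-secreting end stage of the B cell lineage, and multiple myeloma is a cancer of these cells. Some of their surface proteins receive survival signals from the bone marrow, such as the BAFF and APRIL receptors, whereas others anchor the cell to matrix or to its neighbors. Because mature plasma cells carry several of these proteins at high density, they are used to identify myeloma cells by flow cytometry and to direct antibodies, bispecific T cell engagers and chimeric antigen receptor T cells against them.

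Libraries held 26702515 to 41910446 expected counts, and 13129 protein-coding genes, including 9 of the 10 antigens, had enough counts to be tested. CD27 did not pass the filter on low counts. TNFRSF13B passed it through KMS11 alone and CD38 through H929 alone. All 6 plasma cell markers examined (IRF4, PRDM1, XBP1, MZB1, JCHAIN and POU2AF1) were expressed in every library, with summed levels of 4410 to 7380 TPM (transcripts-per-million, a level corrected for transcript length). Of the B cell markers, MS4A1, CD22 and PAX5 stayed at or below 0.02 TPM in every library, and CR2 was at 4.51 to 8.62 TPM in KMS11. Replicates of KMS11 in fluvastatin were farthest apart (SD of the log2 ratio 0.252 over 5561 well-expressed genes, against 0.126 to 0.182 in the other groups). In these bulk RNA samples, fewer cells carrying an antigen and less RNA per cell cannot be told apart.

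The genes lie at separate loci (GRCh38, GENCODE release 44). TNFRSF17 (ENSG00000048462.10) is at chr16:11965210-11968068 on the plus strand, and TNFRSF13B (ENSG00000240505.8) at chr17:16929816-16972118 on the minus strand. SLAMF7 (ENSG00000026751.16, chr1:160739057-160754821, plus strand) lies 27.2 kb from CD48 and 41.3 kb from LY9, 2 other genes of the SLAM family, and FCRL5 (ENSG00000143297.18, chr1:157513377-157552515, minus strand) lies 21.2 kb from FCRL4. CD28 (ENSG00000178562.17, chr2:203706475-203738912, plus strand) lies 115 kb from CTLA4, whereas SDC1 (ENSG00000115884.10), on the same chromosome, is at chr2:20200797-20225433 on the minus strand. CD38 (ENSG00000004468.12, chr4:15778275-15853232, plus strand) lies 40.0 kb from its paralog BST1. CD27 (ENSG00000139193.3, chr12:6444955-6451718, plus strand) and GPRC5D (ENSG00000111291.8, chr12:12940575-12952170, minus strand) share a chromosome, and NCAM1 (ENSG00000149294.16) is at chr11:112961275-113278436 on the plus strand. Several overlap other annotated genes: GPRC5D overlaps the antisense gene GPRC5D-AS1, CD27 overlaps CD27-AS1 and TAPBPL, TNFRSF17 overlaps NPIPB2 on the opposite strand, and TNFRSF13B overlaps the pseudogene TBC1D27P on its own strand. The library kit keeps strand, but whether strand was used in counting is not given in the sources used here, so reads of overlapping partners could have been shared.

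Promoters of 3 genes are printed, those of SDC1 and GPRC5D because their RNA moved in opposite directions under fluvastatin in H929, and that of TNFRSF13B because its RNA was present in KMS11 alone. Each line gives the 250 bases before the RefSeq transcription start (GRCh38.p14), 5′ to 3′ on the strand of the gene, and capitals mark matches to the GC box GGGCGG on either strand. RefSeq promoters were matched for 7 of the 10 genes. The windows are chr2:20225476-20225725 (minus strand) for SDC1, chr12:12952171-12952420 (minus strand) for GPRC5D and chr17:16972119-16972368 (minus strand) for TNFRSF13B.
SDC1: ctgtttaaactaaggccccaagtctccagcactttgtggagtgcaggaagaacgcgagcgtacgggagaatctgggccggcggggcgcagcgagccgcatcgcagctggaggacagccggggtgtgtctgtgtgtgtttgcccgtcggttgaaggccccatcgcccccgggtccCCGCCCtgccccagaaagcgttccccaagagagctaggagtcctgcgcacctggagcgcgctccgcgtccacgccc
GPRC5D: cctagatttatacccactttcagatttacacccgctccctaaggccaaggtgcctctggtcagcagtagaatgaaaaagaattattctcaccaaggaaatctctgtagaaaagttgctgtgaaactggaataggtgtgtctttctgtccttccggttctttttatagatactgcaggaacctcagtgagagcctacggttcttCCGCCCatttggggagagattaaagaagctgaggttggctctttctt
TNFRSF13B: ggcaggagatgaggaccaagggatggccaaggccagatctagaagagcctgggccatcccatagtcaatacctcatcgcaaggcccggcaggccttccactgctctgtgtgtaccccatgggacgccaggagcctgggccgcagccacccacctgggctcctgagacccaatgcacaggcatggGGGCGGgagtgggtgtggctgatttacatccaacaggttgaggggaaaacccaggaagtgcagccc

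The SDC1 window was rich in G and C, at 66.4% with 23 CpG dinucleotides, whereas the GPRC5D window was at 44.4% with 4 and the TNFRSF13B window at 62% with 5. The median over 35116 RefSeq promoters was 58% and 11 CpG. Each of the 3 windows held a single GC box, and 42.6% of all promoters held at least 1. It begins 76, 47 and 66 bases before the start of SDC1, GPRC5D and TNFRSF13B. The CD38 window, scanned as well but not printed, was at 52.4% with 3 CpG and held no GC box and no other motif searched. None of the 3 windows held a match on either strand to AP-1 (TGANTCA, in 6.57% of all promoters), the cyclic AMP response element (TGACGTCA, 1.65%), the ATF4 composite element (TGATGNAA, 3.14%), the XBP1 core (GACGTG, 6.5%) or the interferon regulatory factor element (GAAA, any 2 bases and GAAA, 3.02%). The cyclic AMP response element also holds the letters of the AP-1 motif with a different spacing, and a match is given as a description of the sequence only.

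In solvent-treated H929 cells, TNFRSF17 had the highest level of the 10 antigens, at 414 ± 0.474 TPM (SD, n = 2), and 127 protein-coding genes had a higher level. SDC1 followed at 110 ± 17.4 TPM and SLAMF7 at 91.4 ± 10.7 TPM, and the replicate values of these 2 genes overlapped. GPRC5D at 54.3 ± 1.81 TPM, CD28 at 25.9 ± 2.49 TPM, CD38 at 22.6 ± 1.9 TPM and NCAM1 at 16.1 ± 2.33 TPM came next, each separated from its neighbors in both replicates. FCRL5 was at 0.195 TPM, and TNFRSF13B and CD27 were at or below 0.06 TPM in every H929 library.

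In solvent-treated KMS11 cells, TNFRSF17 was again highest, at 212 ± 20.5 TPM, but CD28 was second at 67.0 ± 7.54 TPM, ahead of SDC1 at 41.9 ± 2.29 TPM and SLAMF7 at 23.3 ± 2.4 TPM. TNFRSF13B was at 7.36 ± 0.354 TPM and GPRC5D at 2.37 ± 0.771 TPM. The replicate values of adjacent genes did not overlap down to this point in the order. NCAM1 at 0.155 TPM and FCRL5 at 0.135 TPM overlapped, and CD38 and CD27 were at or below 0.04 TPM. The plot of levels by library shows the same order.

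**Figure D1:**
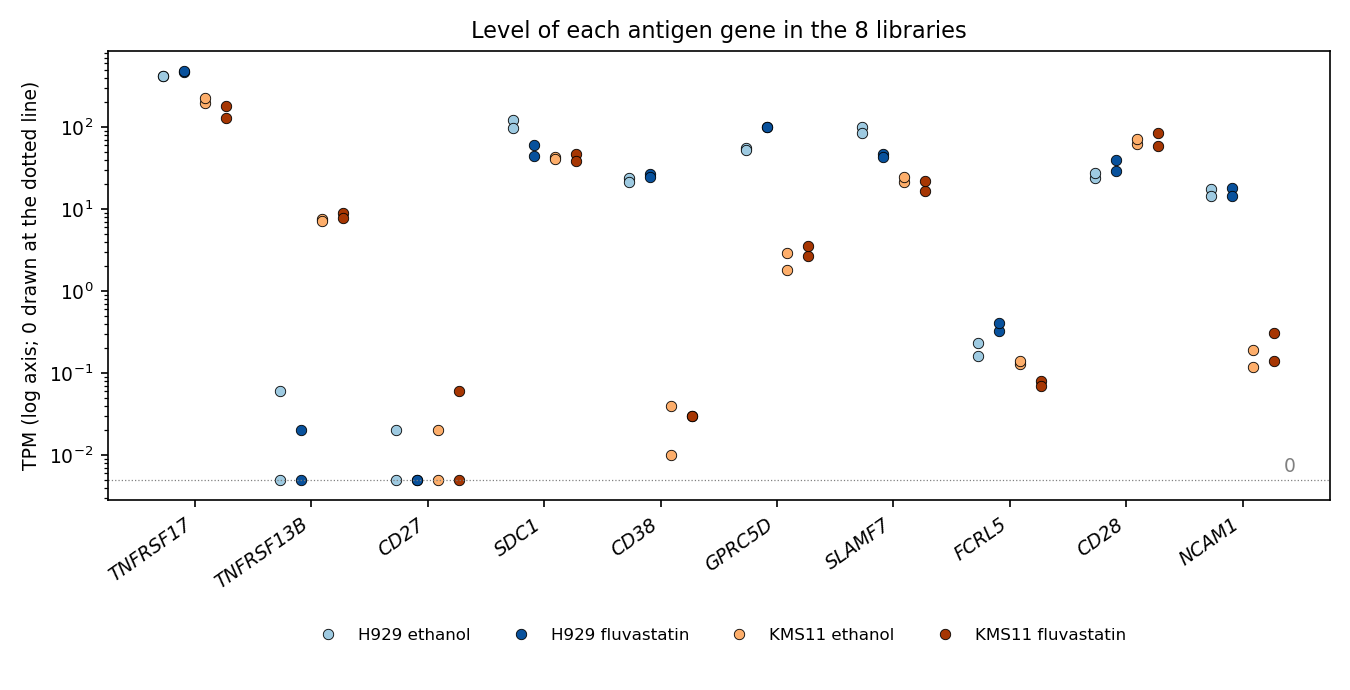
Level of each antigen in TPM (transcripts-per-million, logarithmic axis) in each library of H929 and KMS11 in ethanol and fluvastatin. Each point is 1 of 2 replicates, values of 0 are drawn on the dotted line, and TNFRSF17 sits highest in all 4 groups while NCAM1, CD38 and GPRC5D are far lower in KMS11 than in H929.

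The comparison of KMS11 with H929 in ethanol asked how far the antigen repertoire of these lines differed before treatment. All 9 tested antigens differed between the lines, 7 lower and 2 higher in KMS11, where 72% of all tested genes differed (35.6% higher and 36.4% lower; edgeR quasi-likelihood test, Benjamini-Hochberg adjusted p under 0.05). The share is therefore read against a background in which most genes differed. TNFRSF13B and CD38 entered the test only through the line where they are high, so their calls give no further support. The median log2 difference of the 9 antigens was -1.91, against -0.02 over all tested genes. CD28 was 1.90-fold higher in KMS11.

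CD38, an ectoenzyme that metabolizes NAD and the target of daratumumab and isatuximab, had 165 and 167 CPM (counts-per-million, scaled by the trimmed mean of M values) in the H929 ethanol libraries and 0.104 and 0.301 CPM in those of KMS11. The KMS11 values rest on 4 and 11 counts. The ratio of pooled counts was 827, with an exact 95% interval of 501 to 1478 for counting error only. The fluvastatin groups gave a ratio of 763 (470 to 1336). H929 and KMS11 therefore did not overlap under either treatment. Its paralog BST1, the neighboring gene with the same enzymatic activities, was at or below 0.03 TPM in all 8 libraries.

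NCAM1, the neural cell adhesion molecule CD56 that is often present on myeloma cells and absent from normal plasma cells, was at 128 and 107 CPM in H929 in ethanol and at 0.913 and 1.42 CPM in KMS11. The log2 difference was -6.66 ± 0.20 (SE, adjusted p = 3.1e-09 by the edgeR quasi-likelihood test). GPRC5D, an orphan G protein-coupled receptor and the target of talquetamab, was at 66.0 and 61.9 CPM in H929 and at 1.2 and 2.16 CPM in KMS11, a log2 difference of -5.25 ± 0.20 (adjusted p = 1.49e-08, edgeR). The KMS11 libraries thus retained countable GPRC5D reads, 46 and 79 in ethanol, whereas the overlapping antisense gene GPRC5D-AS1 had 28 to 63 counts in KMS11 and 0 to 3 in H929.

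SLAMF7, SDC1, TNFRSF17 and FCRL5 differed less. SLAMF7, a SLAM family receptor and the target of elotuzumab, was at 473 and 415 CPM in H929 and at 73.3 and 87.0 CPM in KMS11, which is 5.54-fold lower (adjusted p = 1.86e-07, edgeR). SDC1, the heparan sulfate proteoglycan CD138 by which plasma cells are sorted, was 3.77-fold lower in KMS11 (753 and 621 against 183 and 181 CPM, adjusted p = 6.23e-06, edgeR). TNFRSF17, the BAFF and APRIL receptor BCMA, was 2.81-fold lower (712 and 725 against 229 and 282 CPM, adjusted p = 4.1e-06, edgeR). FCRL5, an Fc receptor-like protein and the target of cevostamab, was 2.79-fold lower (1.63 and 1.2 against 0.470 and 0.547 CPM, adjusted p = 0.00206, edgeR), at 18 and 20 counts in the KMS11 libraries. The values of the lines did not overlap in any of these 4 genes, and 72% of all tested genes differed between the lines by the test. The share of all genes without overlap was not counted.

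CD28 and TNFRSF13B were the antigens higher in KMS11. CD28, the costimulatory receptor of T cells that plasma cells also carry, was at 183 and 217 CPM in H929 and at 357 and 401 CPM in KMS11 (adjusted p = 0.000769, edgeR). TNFRSF13B, the BAFF and APRIL receptor TACI, was at 10.7 and 11.6 CPM in KMS11, whereas the H929 ethanol libraries held 2 and 0 counts. The ratio of pooled counts was 304, with an exact 95% interval of 83.9 to 2513 for counting error only. TBC1D27P, which overlaps TNFRSF13B on the same strand, had 142 to 175 counts in KMS11 and at most 1 in H929. CD27, a TNF receptor family member that marks memory B cells and plasma cells, had 0 to 1 counts in H929 and 0 to 3 in KMS11 per library, and 3 counts correspond to 0.0716 to 0.112 CPM before scaling, so no difference was detectable at this depth.

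Fluvastatin changed 4 of the 9 tested antigens in H929, and they did not move together: GPRC5D and FCRL5 rose, SLAMF7 and SDC1 fell. Of all tested genes, 42% changed in H929 (22.7% higher, 19.3% lower; edgeR quasi-likelihood test, adjusted p under 0.05), and the share among the antigens is near that background. The median log2 fold change of the 9 antigens, the fitted value of TNFRSF13B included, was 0.16, against 0.02 over all tested genes. TNFRSF17, CD38, NCAM1 and CD28 did not pass the threshold, and TNFRSF13B was at or under 3 counts in each H929 library, so no fold change is given for it.

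SDC1 was at 753 and 621 CPM in ethanol and at 376 and 274 CPM in fluvastatin. Both treated libraries were below both control libraries, and SDC1 fell 2.11-fold (log2 fold change -1.08 ± 0.17 SE, adjusted p = 0.000862, edgeR). SLAMF7 was at 473 and 415 CPM in ethanol and at 233 and 216 CPM in fluvastatin. The groups did not overlap, and SLAMF7 fell 1.98-fold (-0.98 ± 0.13, adjusted p = 0.000299, edgeR). Both calls held without any single library and under every other setting tried. Of the 6 plasma cell markers, 5 were also called in H929 after fluvastatin, where 42% of all tested genes were called. MZB1 (log2 fold change -1.02), POU2AF1 (-0.59) and XBP1 (-0.34) were lower, and JCHAIN (0.36) and PRDM1 (0.32) were higher. Of these calls only that of POU2AF1 held without each library in turn. The summed level of the 6 markers was 5560 to 6550 TPM in ethanol and 6390 to 7380 TPM in fluvastatin. Most of this sum is JCHAIN, at 5049 and 4164 TPM in ethanol and 6237 and 5289 TPM in fluvastatin, so it says little about the other markers. The part of the 6 markers in the SDC1 and SLAMF7 values was not tested.

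GPRC5D moved the other way. It was at 66.0 and 61.9 CPM in ethanol and at 124 and 120 CPM in fluvastatin, a 1.91-fold rise with no overlap (log2 fold change 0.93 ± 0.15, adjusted p = 0.000924, edgeR), and the call held in all alternatives. FCRL5 was at 1.63 and 1.2 CPM in ethanol and at 2.68 and 2.62 CPM in fluvastatin, from 30 to 65 counts per library. Its 1.86-fold rise (0.89 ± 0.29, adjusted p = 0.0303, edgeR) was not called by DESeq2 (adjusted p = 0.162). It was also lost without any of the H929 libraries (log2 fold change 1.14 and 0.70 without ethanol replicate 1 and 2, 0.88 and 0.91 without fluvastatin replicate 1 and 2, adjusted p = 0.0543 to 0.190) and without either KMS11 ethanol library, at 0.86 in each case.

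The order of the antigens in H929 changed accordingly. The TPM ratio of GPRC5D to SLAMF7 was 0.562 and 0.632 in ethanol and 2.16 and 2.36 in fluvastatin, and that of GPRC5D to SDC1 was 0.454 and 0.543 in ethanol and 1.66 and 2.29 in fluvastatin. GPRC5D therefore ranked below SDC1 and SLAMF7 in ethanol and above both, at 101 TPM, in fluvastatin, against SDC1 at 52.6 TPM and SLAMF7 at 44.9 TPM, whose replicates overlapped each other. The summed level of the 10 genes was 713 and 757 TPM in ethanol and within 748 to 753 TPM in fluvastatin, so the total lay inside the range of the controls.

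TNFRSF17 remained the most abundant antigen in treated H929, at 474 TPM. It was at 712 and 725 CPM in ethanol and at 817 and 822 CPM in fluvastatin, which does not overlap, but its log2 fold change of 0.19 ± 0.13 fell short of the threshold (adjusted p = 0.26, edgeR). CD38 behaved alike, at 165 and 167 CPM in ethanol and 185 and 185 CPM in fluvastatin (0.16 ± 0.11, adjusted p = 0.287, edgeR). NCAM1 overlapped between treatments, at 128 and 107 CPM in ethanol and 132 and 113 CPM in fluvastatin (adjusted p = 0.767, edgeR).

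CD28 was at 183 and 217 CPM in H929 in ethanol and at 230 and 319 CPM in fluvastatin. The groups did not overlap, and the log2 fold change of 0.46 ± 0.17 stood just outside the threshold (adjusted p = 0.0549, edgeR). In 9 of 17 alternatives it was past the threshold, among them DESeq2 (0.47, adjusted p = 0.0155). It ranged from 0.20 without fluvastatin replicate 2 to 0.67 without fluvastatin replicate 1 (adjusted p = 0.41 and 0.0118), so this value turned on those libraries. Of the 8 T and NK cell markers, 3 could be tested (CD3E, CD3G and CD247). They were higher in fluvastatin in H929, where 22.7% of all tested genes were higher. CD3G passed the filter on low counts only through H929 in fluvastatin (37 and 66 counts, against 6 and 2 in ethanol), so its call gives no support. The CD247 call was lost with DESeq2 (adjusted p = 0.0513) and without 4 of the 8 libraries (1.24 to 1.96). The summed level of all 8 markers was 1.64 to 1.68 TPM in ethanol and 3.73 to 4.85 TPM in fluvastatin. In KMS11 that sum was 1.08 to 1.74 TPM in ethanol and 0.86 to 0.89 TPM in fluvastatin. CD2 and CD5 were at or below 0.04 TPM in every library, and the part of these markers in the CD28 values was not tested.

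**Figure D2:**
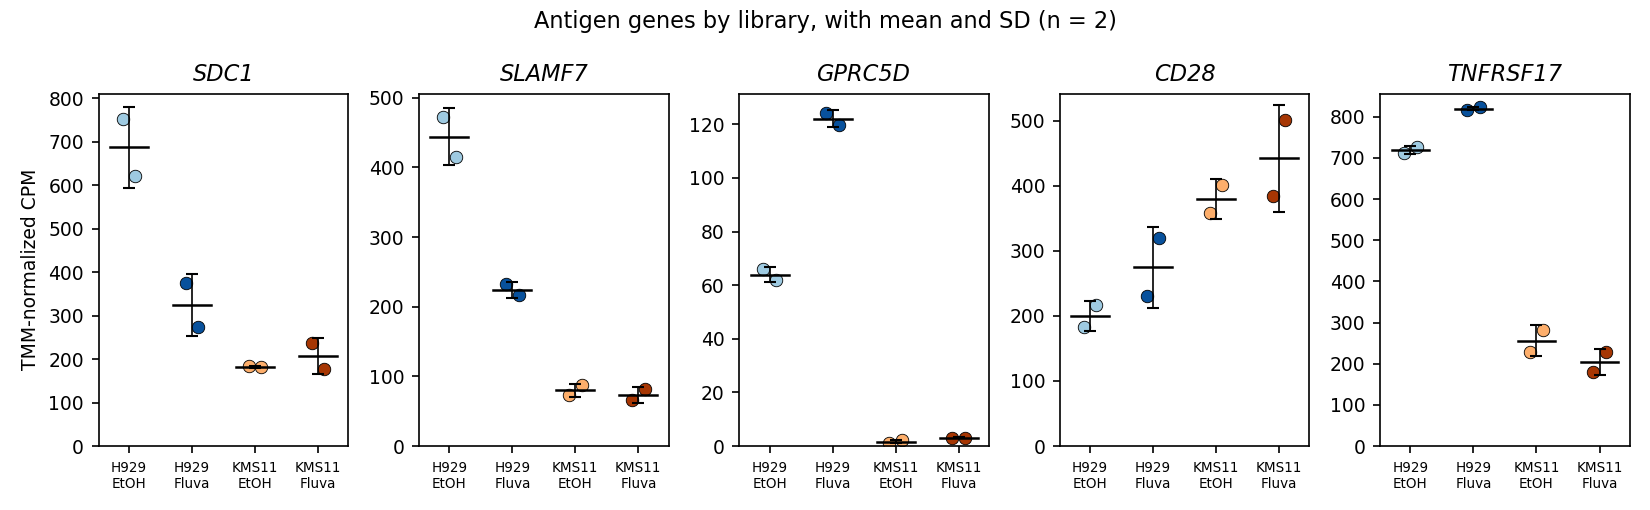
CPM (scaled by the trimmed mean of M values, linear axes from 0) of SDC1, SLAMF7, GPRC5D, CD28 and TNFRSF17 in each of the 8 libraries, by line and treatment, with a point for each replicate, a line at the mean and bars of 1 SD (n = 2). In H929 the treated points of SDC1 (376 and 274) and SLAMF7 (233 and 216) lie below both controls and those of GPRC5D (124 and 120) above them.

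In KMS11, no antigen passed the threshold after fluvastatin (edgeR quasi-likelihood test), where 3.12% of all tested genes did (2.58% higher and 0.533% lower). At an unadjusted p under 0.05, 2 antigens stood out, GPRC5D higher and TNFRSF17 lower. DESeq2 called 1 antigen, GPRC5D, and limma on log2(TPM + 1) called 0 of 8. The median log2 fold change of the 9 tested antigens was 0.11, against 0.00 over all tested genes.

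GPRC5D was at 1.2 and 2.16 CPM in KMS11 in ethanol and at 2.96 and 3.16 CPM in fluvastatin, from 46, 79, 82 and 121 counts. The groups did not overlap, and the log2 fold change was 0.87 ± 0.22 (adjusted p = 0.0713, edgeR). DESeq2 placed it past the threshold (0.84, adjusted p = 0.0046), as did leaving out ethanol replicate 2 (1.32, adjusted p = 0.0294). Leaving out ethanol replicate 1 gave 0.48, so the size of the response turned on the control libraries.

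TNFRSF17 was at 229 and 282 CPM in KMS11 in ethanol and at 181 and 227 CPM in fluvastatin. The lower control library and the higher treated library nearly coincided, and the log2 fold change was -0.32 ± 0.13 (adjusted p = 0.183, edgeR). It was -0.54 without fluvastatin replicate 2 (adjusted p = 0.0179) and -0.18 without fluvastatin replicate 1, and the overlapping gene NPIPB2 had 168 to 232 counts in KMS11. SLAMF7 (73.3 and 87.0 CPM in ethanol, 65.5 and 82.0 CPM in fluvastatin) and SDC1 (183 and 181 CPM in ethanol, 237 and 177 CPM in fluvastatin) overlapped between treatments.

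The remaining antigens of KMS11 did not pass the threshold either. CD28 was at 357 and 401 CPM in ethanol and 384 and 500 CPM in fluvastatin, and TNFRSF13B was at 10.7 and 11.6 CPM in ethanol and 13.2 and 10.8 CPM in fluvastatin, with overlap in each gene. NCAM1, FCRL5 and CD38 had few reads, with 34 to 52, 9 to 20 and 4 to 11 counts per library. The summed level of the 10 genes in KMS11 was 334 to 375 TPM in ethanol and 264 to 337 TPM in fluvastatin.

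**Figure D3:**
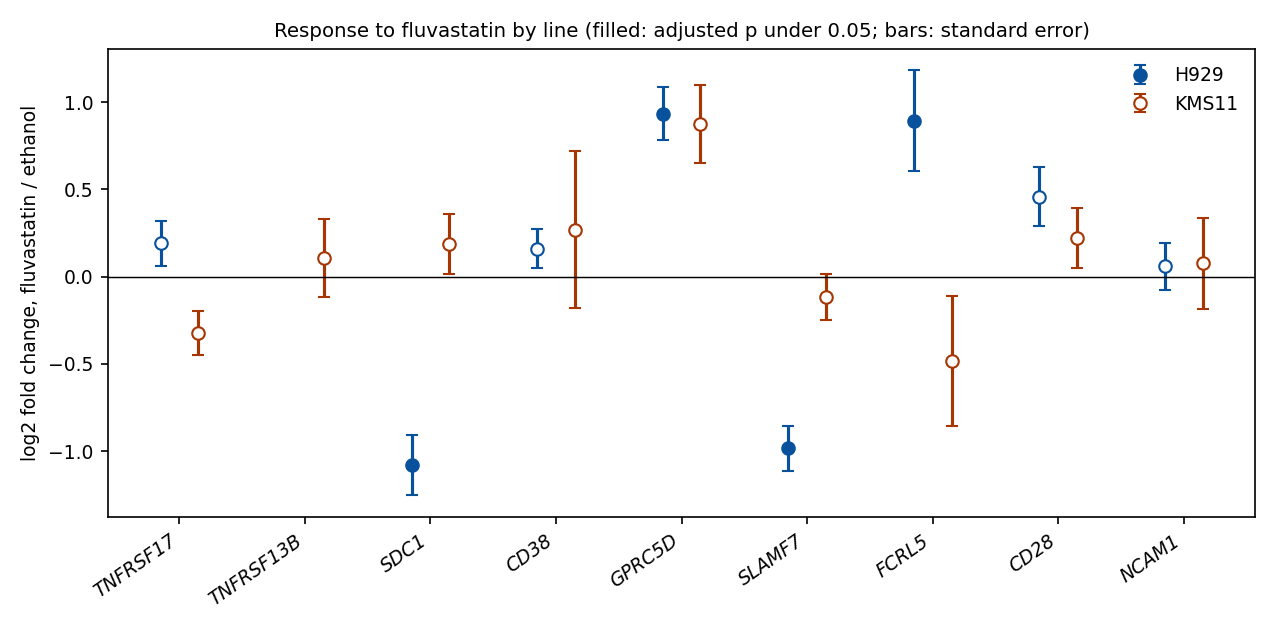
Log2 fold change of each antigen with fluvastatin in H929 and in KMS11 (edgeR quasi-likelihood fit), with bars of 1 SE and filled symbols at an adjusted p under 0.05. SDC1 at -1.08 and SLAMF7 at -0.98 are past the threshold in H929 only by these separate tests, GPRC5D lies at 0.93 and 0.87, and CD27 in both lines and TNFRSF13B in H929 are left out for their low counts.

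Whether the antigens responded differently in the lines was tested as the difference of the log2 fold changes, KMS11 minus H929. This difference passed the threshold for SLAMF7 and SDC1, both higher, among the 9 tested antigens, where 23.2% of all tested genes passed (11.7% higher and 11.5% lower; edgeR quasi-likelihood test). The SDC1 difference was 1.27 ± 0.24 (adjusted p = 0.00619, edgeR), and it held without any single library and under all other settings, although removing the trend with GC content of each library lowered it to 0.62. The SLAMF7 difference was 0.87 ± 0.18 (adjusted p = 0.00956, edgeR), and it fell to 0.76 and lost the threshold without KMS11 ethanol replicate 1 (adjusted p = 0.0612).

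The response of GPRC5D differed by -0.06 ± 0.28 between the lines (adjusted p = 0.912, edgeR), an error wide enough to hold sizable differences in either direction. TNFRSF17, with opposite signs in the lines, differed by -0.51 ± 0.18 (adjusted p = 0.0655, edgeR), and FCRL5 by -1.38 ± 0.47 (adjusted p = 0.0599, edgeR). In this test both were outside the threshold, but TNFRSF17 was past it in 5 of 17 alternatives, among them DESeq2 (-0.56, adjusted p = 0.0206) and limma (-0.66, adjusted p = 0.0402), and FCRL5 in 2 of 16, among them that with the GC content trend removed (-1.34, adjusted p = 0.0451).

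Across both lines, with a term for the line, GPRC5D was the antigen that passed the threshold after fluvastatin, where 10.4% of all tested genes did (6.5% higher and 3.93% lower). Its log2 fold change was 0.91 ± 0.15 (adjusted p = 0.0121, edgeR), higher in 4 of 4 treated libraries than in the controls of their line. The call was lost without H929 ethanol replicate 2 (0.88, adjusted p = 0.0657) and without H929 fluvastatin replicate 1 (0.89, adjusted p = 0.0594). SLAMF7 was at -0.55 ± 0.18 (adjusted p = 0.0774, edgeR). DESeq2 called it (-0.56, adjusted p = 0.0216), as did leaving out KMS11 ethanol replicate 1 (-0.73) or KMS11 fluvastatin replicate 2 (-0.74). SDC1 was at -0.45 ± 0.26 (adjusted p = 0.261, edgeR), with opposite signs in the lines, although the KMS11 value turned to -0.22 with the GC content trend removed. The comparisons share libraries, so the values of H929 enter both this fit and those above.

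The genes whose pattern over the 8 libraries was most like each antigen were found by the Euclidean distance between centered log2 CPM values. They were MCC and SIKE1 for TNFRSF17 (distance 0.32 for both), RAD9A and H1-3 for SDC1 (0.24 and 0.28), TLCD1 and ARRB2 for SLAMF7 (0.43 and 0.45), and BBIP1 and RCOR3 for CD28 (0.28 and 0.29). For GPRC5D they were GNG7 and SKI (0.77 and 0.82), for FCRL5 SULF1 and TMEM106A (0.48 and 0.53), and for TNFRSF13B TNFAIP2 and TUSC1 (0.58 and 0.91). For NCAM1 they were TTC28 and SPEF2 (0.63 and 0.64), and for CD38 TDRD15 and MAGEB1 (0.90 and 1.12). All 8 libraries entered each distance, and the line difference dominates it where that difference is large.

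Among 15 ligands, partners and adaptors of these receptors, 11 could be tested. The genes for APRIL and BAFF, TNFSF13 and TNFSF13B, stayed at or below 0.29 TPM in every library, as did the BAFF receptor TNFRSF13C, so both lines had TNFRSF17 with little RNA of its ligands. The CD28 ligand CD80 was at or below 0.10 TPM, and CD86 was at 0.97 to 1.98 TPM in KMS11 and at or below 0.15 TPM in H929. Fluvastatin raised 4 genes and lowered 2 in H929, and raised 2 in KMS11, where no gene of the list was lower even at an unadjusted p under 0.05. Of all tested genes, 22.7% were higher and 19.3% lower in H929, and 3.12% changed in KMS11. The median log2 fold change of the list was 1.13 in H929 and 0.09 in KMS11, against 0.02 and 0.00 over all tested genes.

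CD70, the ligand of CD27, rose in both lines although its receptor was not detectable at this depth. It was at 0.38 and 0.28 TPM in H929 in ethanol and 1.34 and 0.92 TPM in fluvastatin, from 9 to 43 counts (log2 fold change 1.98 ± 0.34, adjusted p = 0.0013, edgeR). In KMS11 it was at 3.98 and 3.63 TPM in ethanol and 15.3 and 12.5 TPM in fluvastatin (2.03 ± 0.22, adjusted p = 0.000892, edgeR), with no overlap in either line. TRAF1, an adaptor of TNF receptors, rose by 1.63 in H929 and by 2.34 in KMS11 on the log2 scale. TRAF5 (1.44) and TRAF6 (1.13) rose and TRAF2 (-0.998) fell in H929, and each of these 3 differed between the lines by the test of the difference (-1.45, -0.79 and 1.57), although that of TRAF6 lost the threshold without KMS11 ethanol replicate 1 (-0.72, adjusted p = 0.0588, edgeR).

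Of 23 family relatives, 11 were tested, of which 2 rose in H929, where 22.7% of all tested genes did. In KMS11, 0 passed the threshold by edgeR or by limma and 1 by DESeq2, and 3 did at an unadjusted p under 0.05 (1 higher, 2 lower). SDC2, a syndecan like SDC1, moved opposite to it in H929, from 1.02 and 1.66 TPM in ethanol to 5.83 and 8.07 TPM in fluvastatin (log2 fold change 2.62 ± 0.23, adjusted p = 2.66e-05, edgeR). In KMS11 SDC2 was at 12.8 to 13.2 TPM in ethanol and 17.0 to 21.3 TPM in fluvastatin (0.81 ± 0.19, adjusted p = 0.056, edgeR), and the difference of responses was -1.81 ± 0.29. FCRLA, a relative of FCRL5, also rose in H929 (2.73 ± 0.55), from 5 to 59 counts per library. CD48, the SLAM family neighbor of SLAMF7, was at 389 to 493 TPM in H929 and 30.8 to 51.9 TPM in KMS11, and CTLA4, the neighbor of CD28, was at 1.18 to 1.89 TPM in KMS11 and at or below 0.05 TPM in H929.

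The list of 13 genes of shedding and trafficking holds the gamma-secretase subunits, which release the extracellular part of TNFRSF17, and proteases and adaptors that act on syndecans. In H929, 6 of its 12 tested genes rose, and no other passed an unadjusted p under 0.05, among them APH1B (1.2), SDCBP (0.95) and NCSTN (0.46). Of all tested genes, 22.7% rose in H929, and the median log2 fold change was 0.24 in the list and 0.02 over all tested genes. In KMS11, 0 passed the threshold by edgeR, by DESeq2 or by limma, and 1 was lower at an unadjusted p under 0.05. By the test of the difference, 5 of the 12 genes had a lower response in KMS11 than in H929, as did 11.5% of all tested genes. The difference was -1.1 ± 0.24 for APH1B and -0.81 ± 0.14 for SDCBP. Limma did not call NCSTN in H929 (adjusted p = 0.0537), nor ADAM10 or PDCD6IP (adjusted p = 0.15 and 0.209). The ADAM10 call (0.28) was also lost without any single H929 library, either KMS11 ethanol library or KMS11 fluvastatin replicate 2 (0.22 to 0.35), with no filter and with all annotated genes, and that of PDCD6IP (0.31) without either ethanol library of either line or H929 fluvastatin replicate 2 (0.25 to 0.34). The differences of both ADAM10 and NCSTN between the lines were lost with limma and without either KMS11 ethanol library (-0.53 for each in ADAM10, -0.57 and -0.36 in NCSTN).

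The heparan sulfate list covers the enzymes that build and edit the sugar chains of SDC1, and 17 of 17 were tested. In H929, 3 rose and 2 fell, where 42% of all tested genes changed, and in KMS11 1 fell, where 3.12% changed. Not all of the H929 calls held. The fall of EXTL2 (-0.54) was lost with DESeq2 (adjusted p = 0.0589), with limma and without any single H929 library (-0.62 to -0.45). Of the rises, 1 was lost with limma and without some of the H929 libraries. SULF2, an extracellular sulfatase, fell by 1.3 in H929 and by 0.59 in KMS11 on the log2 scale, the latter call being lost without either KMS11 ethanol library (-0.68 and -0.55), KMS11 fluvastatin replicate 1 (-0.63) or either H929 ethanol library (-0.59 for each) and with limma (-0.47, adjusted p = 0.0809). XYLT1, which starts the chain, rose in H929 (0.90), and HS6ST2, a sulfotransferase, went from 1 count in each control library to 14 and 17 counts there.

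Of the 5 enzymes of NAD and adenosine metabolism, 3 were tested. ENPP1 (1.24) and NT5E (1.70) rose and ADA (-0.46) fell in H929, where 42% of all tested genes changed, the ADA call being lost without ethanol replicate 1 (-0.35) or fluvastatin replicate 2 (-0.33). None of the 3 passed the threshold in KMS11 by edgeR, DESeq2 or limma, or at an unadjusted p under 0.05. NT5E, the adenosine-forming CD73, was at 1.42 to 4.83 TPM in H929, against 22.6 TPM for CD38 in ethanol.

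Of 20 other surface antigens of myeloma, all tested, 8 rose in H929, where 22.7% of all tested genes did, and 1 was lower there at an unadjusted p under 0.05 only. The median log2 fold change of the list was 0.40, against 0.02 over all tested genes. In KMS11, 1 rose by edgeR, and DESeq2 called 2 higher and 1 lower. CD55, a complement regulator, rose in H929 (1.71 ± 0.11, adjusted p = 5.48e-06, edgeR) and differed between the lines (-1.90 ± 0.15). CD44, the hyaluronan receptor, rose in H929 (1.67 ± 0.12) and in KMS11 (0.98 ± 0.12), the latter call being lost without KMS11 ethanol replicate 1 (0.90, adjusted p = 0.0782, edgeR). LILRB4, an inhibitory receptor, rose in H929 (1.01 ± 0.17), and CD24 rose there (1.90 ± 0.49) from 7 to 39 counts, a call lost without ethanol replicate 1 (1.5) or fluvastatin replicate 2 (1.45). Across both lines, the 6 context lists together, 74 tested genes, had 10 genes higher and 2 lower, where 6.5% of all tested genes were higher and 3.93% lower.

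**Figure D4:**
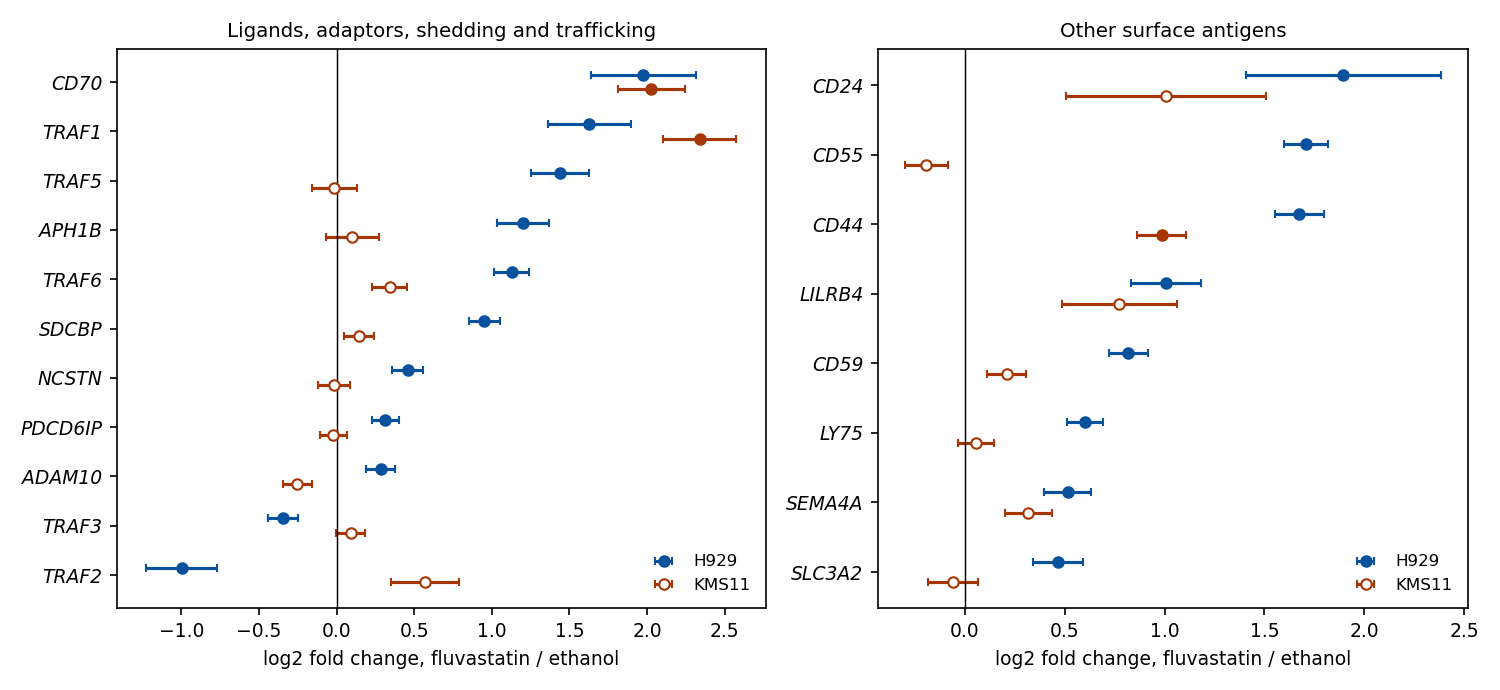
Log2 fold change with fluvastatin in H929 and KMS11 for the reported genes of 3 context lists that passed the threshold in at least 1 line, with bars of 1 SE and filled symbols at an adjusted p under 0.05. CD70 and TRAF1 lie to the right of 0 in both lines, whereas CD55 and APH1B rise in H929 only by these separate tests.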

How the data were processed

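RNA-seq of 8 libraries from 2 cell lines was analysed. The authors aligned reads with STAR 2.5.2b to GRCh38 with GENCODE release 26 and quantified genes with RSEM 1.3.0, and deposited expected counts and TPM per gene and library, computed by RSEM. The libraries were made with a stranded total RNA kit after depletion of ribosomal RNA. Expected counts were rounded to whole numbers. Genes were named by GENCODE release 44 (57392 of 58219 identifiers matched), and 19683 protein-coding genes were kept. Genes under a minimum count of 10 were removed (edgeR filterByExpr, minimum total 15), which left 13129. Counts were scaled by the trimmed mean of M values and tested with edgeR 4.0.16 (R 4.3.3) quasi-likelihood F tests on all 8 libraries, with p-values adjusted by Benjamini-Hochberg over all tested genes at a threshold of 0.05. The response within each line, the difference of responses and the lines in ethanol were tested from the means of the 4 groups, and the response across both lines with terms for line and treatment. SE is the log2 fold change divided by the square root of F. TPM of 2 replicates were averaged for levels.

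Depth ranged from 26702515 to 41910446 expected counts per library, and intervals and the limit of 3 counts cover counting error only, since molecules were not tagged. Replicates of each group differed by more than sampling noise. Fluvastatin and ethanol libraries of the same number are not stated to share a culture. The script was tested on simulated data with known changes. Alternatives were DESeq2 1.42.0, limma 3.58.1 on log2(TPM + 1) for genes of at least 1 TPM in 2 libraries, median-of-ratios and library size scaling, other filters, all annotated genes, a replicate block, removal of the trend with GC content and leaving out each library.

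The 10 members and the context lists were chosen with earlier results of these data known. All 10 were described in every comparison. From each context list, up to 4 genes with the largest log2 fold change among those past the threshold were named, together with ligands, partners and paralogs of the members and the 2 genes nearest in pattern (log2 CPM with a prior count of 2). HS6ST2, whose control libraries held 1 count each, is given as counts. Values of 2 single genes of these lists are not reported here.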

Additional observations from a re-analysis of the deposited data

Results flagged for a closer look

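The response of SDC1 to fluvastatin differed between the lines, with a log2 fold change higher by 1.27 in KMS11 than in H929 in the interaction test (edgeR quasi-likelihood, adjusted p = 0.00619). SDC1 was lower in 2 of 2 treated H929 libraries than in both controls, whereas treated and control libraries of KMS11 overlapped. The response of SLAMF7 differed in the same direction, by 0.87 (adjusted p = 0.00956, edgeR), with 2 of 2 treated H929 libraries below both controls and overlapping values in KMS11. The SLAMF7 difference lost the threshold without KMS11 ethanol replicate 1 (0.76, adjusted p = 0.0612, edgeR), and that of SDC1 was 0.62 with the GC content trend removed. Among all tested genes, 23.2% had a difference past the threshold.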

How the results depend on the processing

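The SDC1, SLAMF7 and GPRC5D calls in H929 kept their direction and their side of the threshold in every alternative that gave a value. So did the SDC1 difference of responses and the differences between the lines in ethanol of the antigens other than TNFRSF13B, CD38 and CD27. TNFRSF13B and CD38 are left out since each entered the test only through the line where it is high, and CD27 was not tested. Of the recomputed values of single antigens, 633 kept both, 11 lost the threshold, 29 gained it and 27 changed sign, and the cause of these changes was not tested except where stated. With 2 replicates per group, and with 4 to 121 counts per KMS11 library for CD38, FCRL5, NCAM1 and GPRC5D, small responses could not be told from the spread.

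Across both lines, 1 antigen was called, against 2 with DESeq2, 2 with limma on log2(TPM + 1), 3 with the GC content trend removed and 0 with no term for the cell line, whose residual spread then holds the line difference. Leaving out each library gave 0 to 2. In H929, 4 were called, with 3 to 5 over the alternatives, the added antigen being CD28. In KMS11, 0 were called, against 1 with DESeq2, 1 with no filter, 1 with the GC trend removed and 0 to 1 without each library. For the difference of responses, 2 were called, with 1 to 3 without each library. The limma fit moved the median log2 difference of all genes in ethanol by 0.46 and holds fewer low genes, since it keeps those of at least 1 TPM in 2 libraries, and its pseudocount shrinks fold changes of low genes. It gave -3.88 for NCAM1 and -4.52 for CD38 between the lines, against -6.66 and -9.66.

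Replicate numbers are shared by the groups. Deviations from the group means of same-numbered libraries correlated at 0.774 in H929 and at -0.0782 in KMS11. Same-numbered libraries thus deviated together in H929, and the reason was not tested. The main fits did not take the numbers as pairs, since a shared culture is not stated. A replicate block gave 1 antigen across both lines, 2 in KMS11 and 4 for the difference, where TNFRSF17 and FCRL5 were added. Over all genes it gave 158 calls across both lines (1370 without it), 6426 in H929 (5511), 1637 in KMS11 (409) and 4227 for the difference (3048). The number of calls in KMS11 was 2148 without fluvastatin replicate 2 and 63 without ethanol replicate 1.

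The context genes, an alternative added after the data were seen, gave 12 calls across both lines, against 6 with limma, 4 with the replicate block, 0 with no term for the line and 3 to 14 without each library. In KMS11 they gave 4, against 7 with DESeq2, 7 with no filter, 11 with the replicate block, 14 with the GC trend removed and 2 to 14 without each library. The difference gave 22, and 10 to 29 without each library.

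Signs changed for values that were not past the threshold. TNFRSF17 across both lines was 0.0719 with no term for the line. With the GC trend removed, TNFRSF13B in KMS11 was -0.13 and SDC1 in KMS11 was -0.22. The NCAM1 difference was -0.0259 with DESeq2, -0.0256 with median-of-ratios scaling, -0.000725 with the replicate block and -0.11 with the GC trend removed. The CD38 difference was -0.18 with limma. Without each library in turn, TNFRSF17 across both lines ranged from -0.13 to 0.0303, TNFRSF13B in KMS11 from -0.0521 to 0.20, SLAMF7 in KMS11 from -0.33 to 0.026, CD28 in KMS11 from -0.0263 to 0.39 and SDC1 in KMS11 from -0.045 to 0.34. NCAM1 ranged from -0.0457 to 0.14 across both lines, from -0.0653 to 0.19 in H929, from -0.24 to 0.40 in KMS11 and from -0.26 to 0.37 for the difference. CD38 ranged from -0.33 to 1.16 in KMS11 and from -0.45 to 1.03 for the difference, CD28 for the difference from -0.45 to 0.0167, and GPRC5D for the difference from -0.42 to 0.42.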
